A study of Mus musculus with 8 samples.

Results

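Emr1 (now Adgre1), Maf, Cd68, Cd163, Vsig4, Ly6c1, Ly6c2 and Ace are 8 genes whose products are used to recognise monocytes and macrophages, and they were followed here in mouse dendritic cells with and without exposure to lipopolysaccharide (LPS). Their members on the array were all probes whose transcript matched one of these symbols. There were 8 such probes among 55681, and they covered 6 of the 8 genes; Cd68 and Ly6c2 had no matched probe and were not analysed here. Of the 8 probes, 6 were well above background on all 8 arrays, namely 2 for Adgre1, 2 for Ly6c1 and 1 each for Maf and Ace. The probes of Cd163 and Vsig4 were above background on 0 of 8 arrays.

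The LPS-treated group held 4 samples of cells that had received LPS, a bacterial cell wall molecule sensed through TLR4, at 50 ng/ml overnight and were collected on day 7. The immature group held 4 samples collected on day 6. Both groups came from bone marrow progenitors of C57BL/6 females, and the labels describe monocytes cultured for 6 days with IL-4 and with GM-CSF at 10 ng/ml. No sample was kept to day 7 without LPS, so LPS and the further night in culture cannot be told apart, no sort is named, and the labels do not say whether the 4 samples of a group are separate animals or cultures, so that p-values measure the spread between these samples. Total RNA was measured in bulk, in which fewer cells of a type and less RNA per cell cannot be told apart.

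Monocytes leave the bone marrow for the blood and can become macrophages or dendritic cells in tissues. Mouse monocytes are divided by the surface antigen Ly6C into a classical, Ly6C-high kind that enters inflamed tissue and a Ly6C-low kind that patrols vessels. Macrophages carry the adhesion receptor encoded by Adgre1, read by the F4/80 antibody, and depend on the transcription factor c-Maf, among others, for their mature state, while tissue-resident macrophages add the scavenger receptor CD163 and the complement receptor VSIG4. Bone marrow cultures with GM-CSF are known to hold both macrophage-like and dendritic cell-like cells.

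Levels are log2 processed signals relative to the 75th percentile of the same array, so that 0 is that percentile and 1 more is 2 times the signal. Between 47.5% and 48.4% of spots were well above background on the LPS arrays, and between 47.7% and 51.3% on the immature arrays. Immature replicate 3 stood apart, differing by 0.245 to 0.358 log2 (scaled MAD over the brighter detected probes) from each other immature array; the remaining immature pairs differed by 0.0885 to 0.188 and the LPS pairs by 0.105 to 0.218, with replicates 1 and 2 the closest pair in both groups. The LPS arrays lay in row 2 and the immature arrays in row 1 of 1 slide, so slide row and treatment cannot be told apart. Of 15 dendritic cell markers with a probe 13 were above background on all 8 arrays, Xcr1 was on none and Cd209a was on the immature arrays alone. With limma over 12706 genes, 56.1% were called changed at an adjusted p under 0.05, 31.4% higher and 24.7% lower, with a median log2 fold change of 0.06, and for 52.4% the groups did not overlap.

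Setting LPS-treated against immature samples addresses dendritic cell maturation, which the series is named for. 3 members rose and 1 fell: Ly6c1 rose 3.94-fold, Maf 2.52-fold and Adgre1 1.91-fold, while Ace was 1.72-fold lower. All 6 tested probes had the 4 LPS arrays entirely on one side of the 4 immature arrays, and all 6 were called. With 56.1% of all genes called and 52.4% separated, and 49.8% of 25941 tested probes called and 47.5% separated, 4 of 4 genes and 6 of 6 probes are counts against a high background. A larger rise than that of Ly6c1 was seen for 3.27% of tested genes, than that of Maf for 6.39% and than that of Adgre1 for 10.3%, and a larger decrease than that of Ace for 12.2%.

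**Figure D1:**
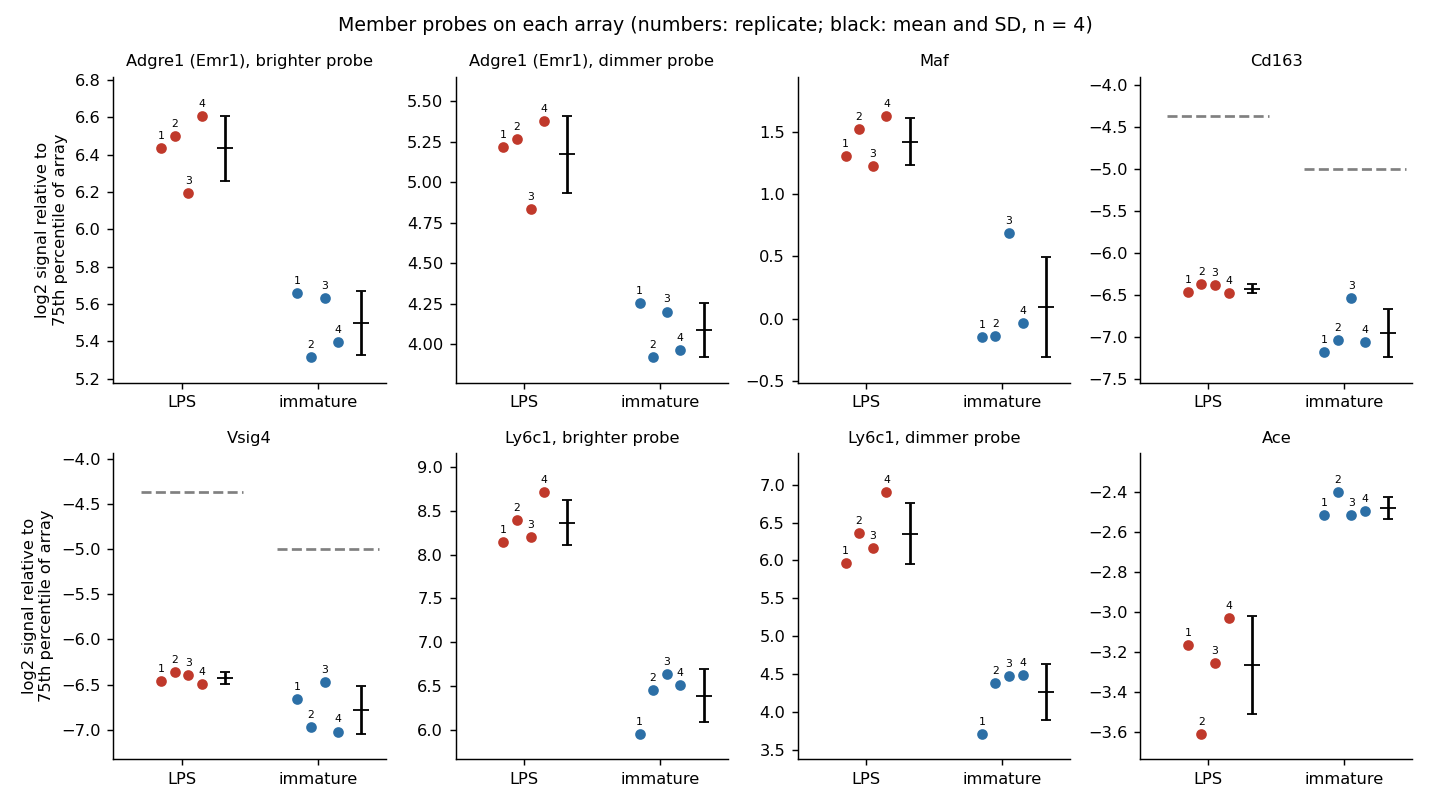
Level of each of the 8 member probes (log2 processed signal relative to the array's 75th percentile) on the 4 LPS arrays and the 4 immature arrays, with the replicate number at each point and the mean and SD (n = 4) in black. The dashed lines for Cd163 and Vsig4 are the dimmest level on any array of the group that the software called above background (−4.37 for LPS, −5.00 for immature), and all their points lie below them; the other 6 probes separate the groups, with Ace the 1 that is lower after LPS.

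**Figure D2:**
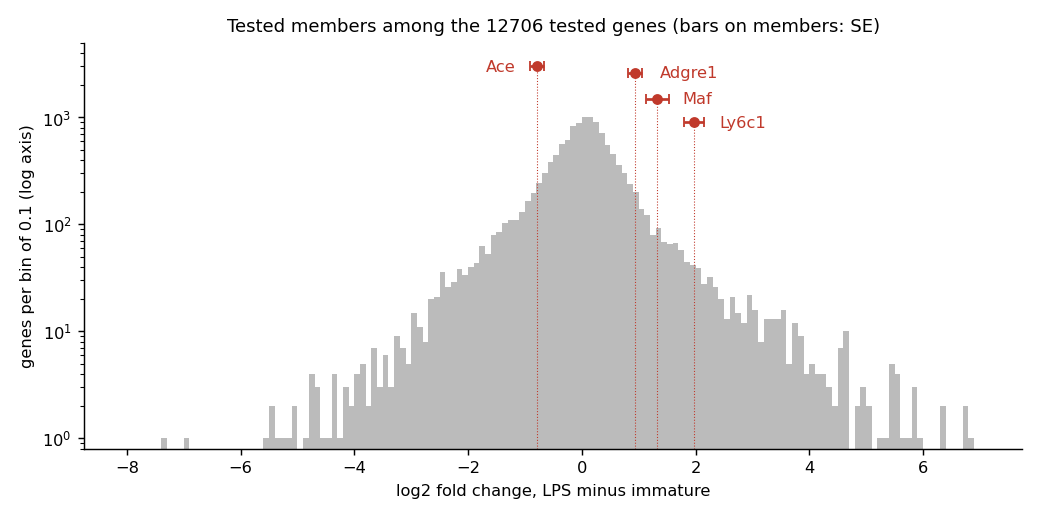
Distribution of the log2 fold change (LPS minus immature) of the 12706 tested genes in bins of 0.1, with a log axis for the number of genes, and the 4 tested members with their SE; the height of a member's point carries no value. Ace lies at −0.78, Adgre1 at 0.93, Maf at 1.33 and Ly6c1 at 1.98.

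Adgre1 encodes an adhesion G protein-coupled receptor of the macrophage surface. Its brighter probe (A_55_P2144386) had levels of 6.43, 6.50, 6.19 and 6.60 on the LPS arrays, against 5.66, 5.31, 5.63 and 5.39 on the immature arrays. The lowest LPS value, in replicate 3, stayed above the highest immature value, in replicate 1. The probe averaged 6.43 ± 0.17 (SD, n = 4) after LPS and 5.50 ± 0.17 in immature cells, and the gene rose by 0.93 ± 0.12 log2 (SE; limma adjusted p = 0.000294). The dimmer probe (A_55_P2018934) read 5.22, 5.26, 4.83 and 5.38 after LPS, against 4.25, 3.92, 4.20 and 3.96 in immature cells. It kept the same order of arrays within the LPS group and rose by 1.09 ± 0.14 (SE; limma adjusted p = 0.000350 over 25941 probes). Its rise was larger than that of the brighter probe by 0.15 log2 (exact permutation p = 0.0286, adjusted p = 0.0343 over 6 within-array differences), a value that does not depend on the scaling between arrays. The 6 include differences, given below, whose p was fixed in advance. The adjusted p is lower than it would be without them and adds no support.

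No other tested adhesion receptor gene of leukocytes passed as higher. Of 10 listed genes 5 were tested, 0 rose, 2 fell and 3 did not pass, with a median log2 fold change of −0.22, against 0.06 for all tested genes. Adgrg5 fell by 2.26 ± 0.34 (SE; limma adjusted p = 0.000713) and Adgrg3 by 0.22 ± 0.07 (0.0338). The call of Adgrg3 was lost under 10 of 19 alternatives, 7 of which left out 1 array (adjusted p 0.0504 to 0.107). Adgre4 and Adgre5, both of the same subfamily as Adgre1, had 0.21 ± 0.22 and −0.16 ± 0.16 (SE). Csf1r, the receptor for the macrophage growth factor CSF1, had levels of 8.01 ± 0.09 (SD) after LPS and 8.14 ± 0.10 in immature cells and did not pass (−0.13, limma adjusted p = 0.211). Within arrays, Adgre1 changed by 1.06 log2 more than Csf1r, with no overlap between the groups (exact permutation p = 0.0286, adjusted p = 0.0343). The gap between the Adgre1 groups was wider than the whole range of Csf1r (7.89 to 8.28). This p was therefore fixed at its smallest value and adds no support. Csf1r passed as lower when arrays were scaled to their medians (−0.30, limma adjusted p = 0.0257) or left unscaled (−0.34, 0.0156), and when its probes were averaged (−0.28, 0.0343).

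Maf encodes c-Maf, a basic leucine zipper factor that is also known for driving IL-10 transcription. Its probe (A_51_P405167) had levels of 1.31, 1.53, 1.23 and 1.63 on the LPS arrays, against −0.15, −0.14, 0.69 and −0.03 on the immature arrays. Immature replicate 3 was far above the other immature arrays and still below every LPS array. Maf averaged 1.42 ± 0.19 (SD, n = 4) after LPS and 0.09 ± 0.40 in immature cells, a rise of 1.33 ± 0.20 log2 (SE; limma adjusted p = 0.000648). Without immature replicate 3 the rise was 1.53 (adjusted p = 4.29e-05).

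Mertk, the kinase with which macrophages take up dying cells, was read beside Maf. It had 0.65 ± 0.27 (SD) after LPS and 1.08 ± 0.35 in immature cells, with overlapping groups, and did not pass (−0.43, limma adjusted p = 0.0938). It passed as lower when arrays were scaled to their medians (−0.60, 0.0233) or left unscaled (−0.63, 0.0203) and with the replicate block (0.0497). In the wider list of Maf proteins and their partners 9 of 10 were tested, 1 rose, 3 fell and 5 did not pass, with a median of 0.14. Nfe2, the partner of small Maf proteins known from erythroid cells and platelets, fell by 1.16 ± 0.16 (adjusted p = 0.000380). The small Maf gene Mafg rose by 0.29 ± 0.09 (adjusted p = 0.0238), a call lost under 12 of 19 alternatives, including each of the 5 other scalings and background corrections (adjusted p 0.0636 to 0.564).

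**Figure D3:**
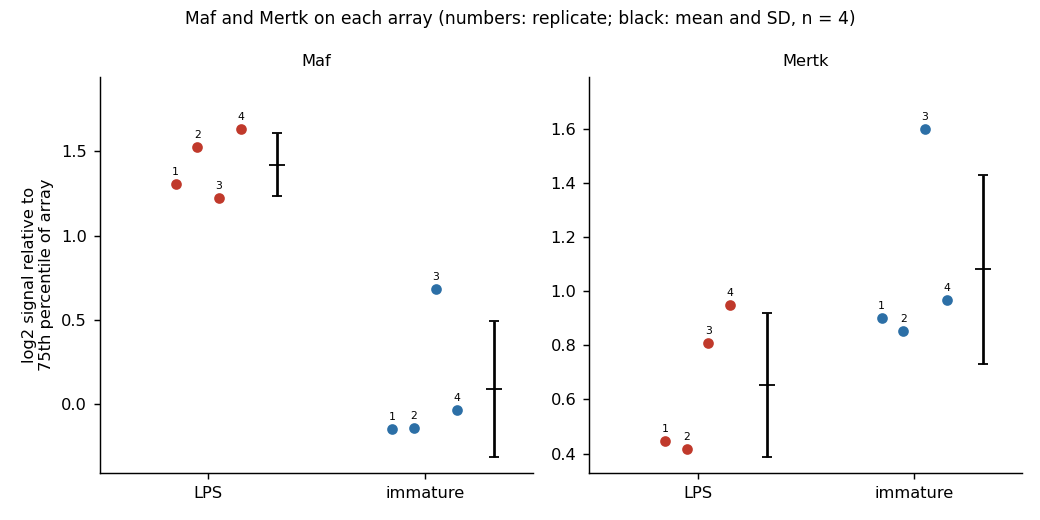
Levels of Maf and Mertk (log2 processed signal relative to the array's 75th percentile) on the 4 LPS arrays and the 4 immature arrays, with replicate numbers and the mean and SD in black. Maf is higher on every LPS array than on any immature array, Mertk overlaps, and immature replicate 3 is the highest immature array for both genes.

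The markers of settled tissue macrophages among the members were not detected. CD163 takes up haptoglobin bound to haemoglobin, and its probe (A_55_P2289819) read between −6.48 and −6.37 on the LPS arrays and between −7.18 and −6.53 on the immature arrays. VSIG4 binds fragments of complement C3, and its probe (A_55_P2012899) read between −6.49 and −6.36 after LPS and between −7.02 and −6.47 in immature cells. The dimmest level that the software called above background was −4.37 to −4.21 for the LPS group and −5.00 to −4.34 for the immature group, so both probes were not well above background in either group and no change is given. Most other macrophage genes were detected: of 33 listed, 28 were above background on all 8 arrays, among them Siglec1, Spic, Marco and Slc40a1 of tissue macrophages. The other 5 were Lyve1, Timd4 and Clec4f, above background on 0 of 8 arrays, Folr2, on 1 LPS and 3 immature arrays, and Cd5l, on 3 LPS and 4 immature arrays; Spic, Marco, Lyve1, Timd4, Clec4f and Folr2 were chosen after their values were seen.

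The partners of these receptors were measured. Of 12 genes of haptoglobin and heme handling 12 were tested, 7 rose, 2 fell and 3 did not pass, with a median of 0.25. Hmox1, which breaks down heme, rose by 1.09 ± 0.17 log2 (SE; limma adjusted p = 0.000826). Hpx, the heme carrier hemopexin, rose by 0.87 ± 0.24 (0.0153), but under normexp it had 0.22 and missed the threshold (0.0862), and Slc40a1, the iron exporter ferroportin, fell by 1.30 ± 0.23 (0.00152). With scaling to the array median or no scaling, 4 of the 12 rose. Of 7 genes related to Cd163 by their scavenger receptor cysteine-rich domains 3 were tested, 2 fell and 1 did not pass, with a median of −1.11; Cd6 fell by 2.04 ± 0.33 (0.00107), and Cd5l, an inhibitor of apoptosis secreted by macrophages, fell by 1.11 ± 0.30 (0.0141). Around the complement ligand of VSIG4, 13 of 16 genes were tested, 2 rose, 6 fell and 5 did not pass, with a median of −0.20. Cfb, factor B of the alternative pathway, rose by 4.86 ± 0.18 (8.09e-07), whereas Cd55, encoding a membrane inhibitor of complement, fell by 1.06 ± 0.20 (0.00226).

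Cd68, a lysosomal glycoprotein of the LAMP family, had no matched probe. Of its 4 listed relatives 3 were tested: 0 rose, Lamp3, encoding the DC-LAMP protein of mature human dendritic cells, fell by 0.64 ± 0.14 log2 (SE; limma adjusted p = 0.00485), and Lamp1 and Lamp2, of the lysosomal membrane, had 0.14 ± 0.07 and 0.02 ± 0.09. The median of the 3 was 0.02.

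Ly6c1 encodes a small GPI-anchored protein and, with its neighbour Ly6c2, the Ly6C antigen of classical monocytes. Its brighter probe (A_55_P2064771) had levels of 8.14, 8.40, 8.20 and 8.72 on the LPS arrays, against 5.95, 6.45, 6.64 and 6.51 on the immature arrays. The groups were separated by over 1 log2, and immature replicate 1 was the lowest of all. The probe averaged 8.37 ± 0.26 (SD, n = 4) after LPS and 6.39 ± 0.30 in immature cells, and the gene rose by 1.98 ± 0.18 log2 (SE; limma adjusted p = 4.82e-05). The dimmer probe (A_55_P1961499), designed to another transcript of the gene, read 5.97, 6.37, 6.16 and 6.90 after LPS, against 3.72, 4.39, 4.48 and 4.49 in immature cells. It rose by 2.08 ± 0.24 (SE; limma adjusted p = 0.000215 over 25941 probes), and the rises of the 2 probes differed by 0.10 log2 within arrays, with overlapping groups (exact permutation p = 0.314).

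The Ly6 genes lie in a cluster of close relatives, and 0 protein-coding genes stand between Ly6c1 and Ly6c2 in the gene table. The windows from 250 bases before to 50 after a transcription start are shown for Ly6c1 (its second listed start, chr15:75048614-75048913, minus strand), Ly6c2 (its first, chr15:75111922-75112221, minus strand) and Ly6f (chr15:75268171-75268470, plus strand), from RefSeq on GRCm38.p6, because Ly6c1 and Ly6f rose together and Ly6c2 is the near copy without a probe. Capitals mark GAGGAAGT, a sequence of the kind bound by ETS factors such as PU.1, searched on both strands.
Ly6c1: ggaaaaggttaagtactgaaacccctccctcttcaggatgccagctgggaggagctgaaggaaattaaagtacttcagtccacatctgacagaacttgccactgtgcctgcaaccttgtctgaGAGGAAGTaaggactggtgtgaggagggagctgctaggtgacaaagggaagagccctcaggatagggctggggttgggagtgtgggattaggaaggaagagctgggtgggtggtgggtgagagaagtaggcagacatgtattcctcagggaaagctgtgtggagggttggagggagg
Ly6c2: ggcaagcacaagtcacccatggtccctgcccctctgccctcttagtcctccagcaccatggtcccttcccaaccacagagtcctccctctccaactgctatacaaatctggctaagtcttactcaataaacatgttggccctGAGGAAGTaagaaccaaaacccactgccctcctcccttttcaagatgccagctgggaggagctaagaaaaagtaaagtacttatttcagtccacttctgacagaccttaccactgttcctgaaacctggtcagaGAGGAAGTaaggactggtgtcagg
Ly6f: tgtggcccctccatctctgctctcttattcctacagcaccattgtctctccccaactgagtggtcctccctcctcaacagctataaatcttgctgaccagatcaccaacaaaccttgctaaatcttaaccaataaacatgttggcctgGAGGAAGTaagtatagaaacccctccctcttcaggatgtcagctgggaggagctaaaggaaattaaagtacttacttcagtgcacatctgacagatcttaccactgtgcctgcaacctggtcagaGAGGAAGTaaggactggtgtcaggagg
The Ly6c1 window was 86.7% identical to that of Ly6c2 over 143 aligned bases and 91.3% identical to that of Ly6f over 149. The window of the first Ly6c1 start aligned over more bases at lower identity, with 78.2% over 266 bases to Ly6c2 and 86.0% over 250 to Ly6f. GAGGAAGT occurred 1 time in the window of Ly6c1 and 2 times each in those of Ly6c2 and Ly6f, and 3.20% of all 32851 windows held it. The window of the first Ly6c1 start did not count as holding it, because that window ends inside the same site. Of the 7 motifs searched, the interferon-stimulated response element (in 3.44% of all windows), the gamma-activated site TTCNNNGAA (8.30%) and its form with a longer spacer (6.95%), the kappa B site (0.411%), TGANTCA (AP-1, 7.81%) and TTGCGCAA (C/EBP, 0.183%) did not occur in these windows. The motifs were chosen after the changes were known, and a match is no evidence of binding. Whether the Ly6c1 probes also bound transcripts of Ly6c2, Ly6f or other relatives was not tested, and their signal is uncertain to that extent.

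Several relatives rose with Ly6c1. Whether the probes of Ly6i, Ly6f and Ly6a also bound each other's transcripts, or those of Ly6c1 or Ly6c2, was not tested. Their changes are uncertain to that extent and may not be separate. Of 28 genes of the Ly6 and urokinase receptor superfamily 15 were tested, 8 rose, 1 fell and 6 did not pass, with a median of 0.44 log2, and 5 rose with scaling to the array median, no scaling or normexp. Ly6i and Ly6f rose by 3.40 ± 0.17 and 3.33 ± 0.17 (SE; limma adjusted p = 2.04e-06 and 2.21e-06), and Ly6g5b fell by 0.85 ± 0.18 (0.00397). Ly6a, encoding the stem cell antigen Sca-1, and Ly6e, an interferon-inducible relative, rose by 3.04 ± 0.09 and 0.67 ± 0.13; these 2 were chosen after their values were seen. Within arrays Ly6c1 rose by 1.42 log2 less than Ly6i, with no overlap (exact permutation p = 0.0286, adjusted p = 0.0343). The gap between the Ly6i groups (lowest LPS 5.34, highest immature 2.38) was wider than the whole range of Ly6c1 (5.95 to 8.72). This p was therefore fixed at its smallest value and adds no support.

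Other monocyte genes changed in both directions. Ccr2, the chemokine receptor with which classical monocytes leave the marrow, fell by 3.64 ± 0.34 log2 (SE; limma adjusted p = 5.47e-05). Within arrays, the change of Ly6c1 exceeded that of Ccr2 by 5.62 log2 (exact permutation p = 0.0286, adjusted p = 0.0343). Both genes separated the groups, in opposite directions, so this p was fixed at its smallest value and adds no support. Of 24 monocyte genes other than the members 24 were tested, 6 rose, 12 fell and 6 did not pass, with a median of −0.43, against 0.06 for all tested genes. F13a1, the coagulation factor XIII subunit made by monocytes, fell by 3.78 ± 0.56 (0.000671), and the transcription factor gene Pou2f2 rose by 2.86 ± 0.19 (1.07e-05). Cx3cr1, the fractalkine receptor of Ly6C-low monocytes, had 2.95 ± 0.84 (SD) after LPS and 1.87 ± 0.50 in immature cells and did not pass (1.08, adjusted p = 0.0557); leaving out LPS replicate 3 gave 1.32 and a call (0.0352), as did leaving out LPS replicate 4 (1.33, 0.0321) and trend and robust fitting (0.0467).

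Macrophage genes other than the members changed in both directions. Of 33 listed 29 were tested, 6 rose, 15 fell and 8 did not pass, with a median of −0.42. The mannose receptor gene Mrc1 fell by 4.23 ± 0.18 log2 (SE; limma adjusted p = 1.31e-06) and C1qc, a chain of complement C1q, by 2.31 ± 0.11 (1.85e-06). Siglec1, the sialic acid receptor of marginal metallophilic macrophages, rose by 4.65 ± 0.21 (1.47e-06) and Cd14, the LPS coreceptor, by 2.54 ± 0.21 (3.20e-05). Fcgr1, the high-affinity Fc receptor that is used with MERTK to tell macrophages from dendritic cells, had 3.67 ± 0.21 (SD) after LPS and 3.75 ± 0.29 in immature cells and did not pass (−0.08, adjusted p = 0.711). The integrin gene Itgam, encoding CD11b, fell by 0.25 ± 0.09 (0.0368), a call lost under 10 of 19 alternatives (adjusted p 0.0527 to 0.203), while Itgax, encoding CD11c, fell by 0.99 ± 0.10 (8.89e-05).

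**Figure D4:**
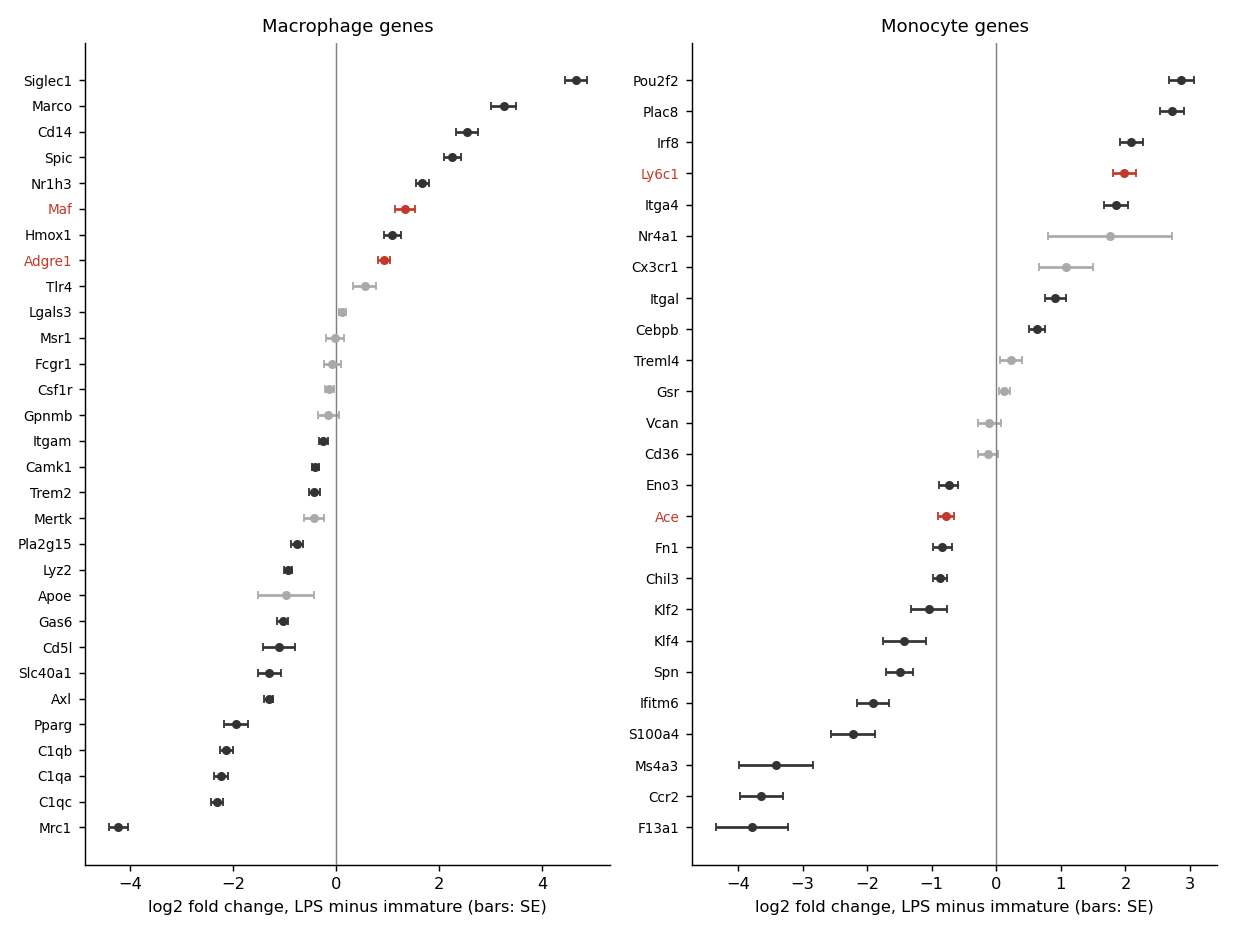
Log2 fold change (LPS minus immature) with its SE for the tested macrophage genes and monocyte genes reported here, with the members Adgre1, Maf, Ly6c1 and Ace in red, other genes past an adjusted p of 0.05 in black and the rest in grey. Macrophage genes run from Mrc1 at −4.23 to Siglec1 at 4.65 and monocyte genes from F13a1 at −3.78 to Pou2f2 at 2.86, and 3 of the 4 members lie to the right of 0.

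Ace encodes angiotensin-converting enzyme, which makes angiotensin II, trims peptides for MHC class I and is carried by Ly6C-low monocytes and by endothelium. Its probe (A_52_P68028) had levels of −3.16, −3.61, −3.26 and −3.03 on the LPS arrays, against −2.51, −2.40, −2.52 and −2.50 on the immature arrays. These are dim: the deposited processed signals were 46.2, 32.6, 41.1 and 51.4 after LPS, against 85.9, 90.3, 79.8 and 79.7 in immature cells, and the immature arrays differed little. Ace averaged −3.26 ± 0.25 (SD, n = 4) after LPS and −2.48 ± 0.05 in immature cells and fell by 0.78 ± 0.12 log2 (SE; limma adjusted p = 0.000864). With the normexp background correction the decrease was 0.48 in size (−0.48, adjusted p = 0.000928). Within arrays Ace changed by −1.71 log2 relative to Adgre1 (exact permutation p = 0.0286, adjusted p = 0.0343). Ace and Adgre1 each separated the groups, in opposite directions, so their difference could not overlap and its p adds no support.

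The rest of the renin-angiotensin system was partly below background in these cells. Of 20 listed peptidases and receptors 9 were tested, 2 rose, 3 fell and 4 did not pass, with a median of −0.05 (1 rose when arrays were scaled to their medians, left unscaled or corrected with normexp), and 9 of the 20 were above background on 0 arrays. Thop1 and Nln, peptidases that also cut angiotensin peptides, fell by 0.81 ± 0.19 and 0.44 ± 0.10 log2 (SE; limma adjusted p = 0.00618 and 0.00583). Agtrap, which promotes removal of the type 1 angiotensin receptor from the surface, rose by 1.05 ± 0.10 (8.18e-05).

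Markers of other cells that carry Ly6C or ACE were read beside these results, and their part in the results was not tested. Of 10 endothelial markers 4 were above background on all 8 arrays and 5 (Cdh5, Tek, Tie1, Emcn and Cldn5) on none; of the 4 tested 2 rose and 1 fell, with a median of 0.12, led by Eng, a TGF-beta coreceptor, at 1.23 ± 0.17 log2 (SE; limma adjusted p = 0.000398). Their summed signal, in multiples of the array's 75th percentile, was 14.6 to 17.2 on the LPS arrays and 15.4 to 19.2 on the immature arrays. Of 9 markers of plasmacytoid dendritic cells 9 were tested, 1 rose, 2 fell and 6 did not pass, with a median of 0.06; Klk1, a kallikrein gene, fell by 4.12 ± 0.24 (5.59e-06), and the summed signal was 302 to 327 after LPS and 152 to 176 in immature cells. The 1 marker that rose was Bst2, also induced by interferon in other cells, with a level of 7.49 ± 0.12 (SD) after LPS and 4.89 ± 0.18 in immature cells (2.60 log2, limma adjusted p = 1.14e-06). Of 13 tested neutrophil markers 12 fell and 1 rose, with a median of −2.56, the granule enzyme gene Mpo falling by 4.66 ± 0.42 (5.15e-05), and their sum was 770 to 836 after LPS and 899 to 1059 in immature cells. The 1 that rose was the brightest of the 13 after LPS (level 8.59, against 6.10 in immature cells), so the sum fell less than most of the markers did.

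The lymphoid and stromal lists each held markers below background on every array. Of 9 T cell markers 6 were tested, 2 rose and 2 fell (median 0.08), Cd8a and Cd8b1 were above background on none, and Cd3d was at least 3.10-fold lower after LPS (limma adjusted p = 0.000987), where it was above background on 0 of 4 arrays; the list summed to 5.48 to 6.00 after LPS and 5.00 to 6.49 in immature cells. Of 8 B cell markers 4 were tested, 1 rose and 0 fell (median −0.28), Pax5 and Ebf1 were on none, and Blnk, an adaptor that myeloid cells share, rose by 1.61 ± 0.16 (9.31e-05). The sums were 69.4 to 98.8 after LPS and 23.3 to 34.5 in immature cells. Most of these B cell sums was the signal of Blnk, with a level of 6.37 ± 0.27 (SD) after LPS and 4.76 ± 0.24 in immature cells. Of 7 natural killer cell markers 2 were tested and both fell (median −1.29), Klrb1c by at least 1.35-fold (4.23e-05), with Ncr1, Gzma and Eomes on none and sums of 0.352 to 0.477 after LPS and 0.602 to 0.655 in immature cells. Of 9 stromal and osteoclast markers 6 were tested, 3 rose and 1, Ocstamp of fusing osteoclasts, fell by 2.03 ± 0.19 (5.93e-05), with a median of 0.44, Col3a1 and Pdgfra on none and sums of 498 to 542 after LPS and 170 to 236 in immature cells. Most of that summed signal was that of Acp5, a phosphatase that osteoclasts and macrophages share, which rose, with a level of 8.90 ± 0.07 (SD) after LPS and 7.24 ± 0.28 in immature cells (1.67 log2, limma adjusted p = 2.72e-05); Bst2 and Acp5 were chosen after their values were seen. Of 14 tested dendritic cell markers 5 rose (2 when arrays were scaled to their medians or left unscaled), 6 fell and 3 did not pass (median −0.04), with Cd209a at least 38.2-fold lower (5.71e-07) and sums of 1169 to 1314 after LPS and 1111 to 1183 in immature cells. The brightest of the 14 after LPS was 1 of the 5 that rose (level 8.87, against 6.75 in immature cells), and it weighs most in the LPS sums.

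The genes whose levels followed each member most closely over the 8 arrays are given as a description, since a difference between the groups alone makes r high. For Adgre1 they were Cybc1 and Gbp3 (Pearson r = 0.990 and 0.989), with 541 genes above 0.95. For Maf they were Map4k5 and Sgk1 (both r at least 0.995), and for Ly6c1 they were Gsdmd, encoding the pore protein gasdermin D, and Slc7a2, an arginine transporter (r = 0.998 and 0.995). For Ace they were Arhgap39 and Cd209c (both r at least 0.973), and 36 genes were above 0.95, against 958 for Ly6c1 and 649 for Maf.

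**Figure D5:**
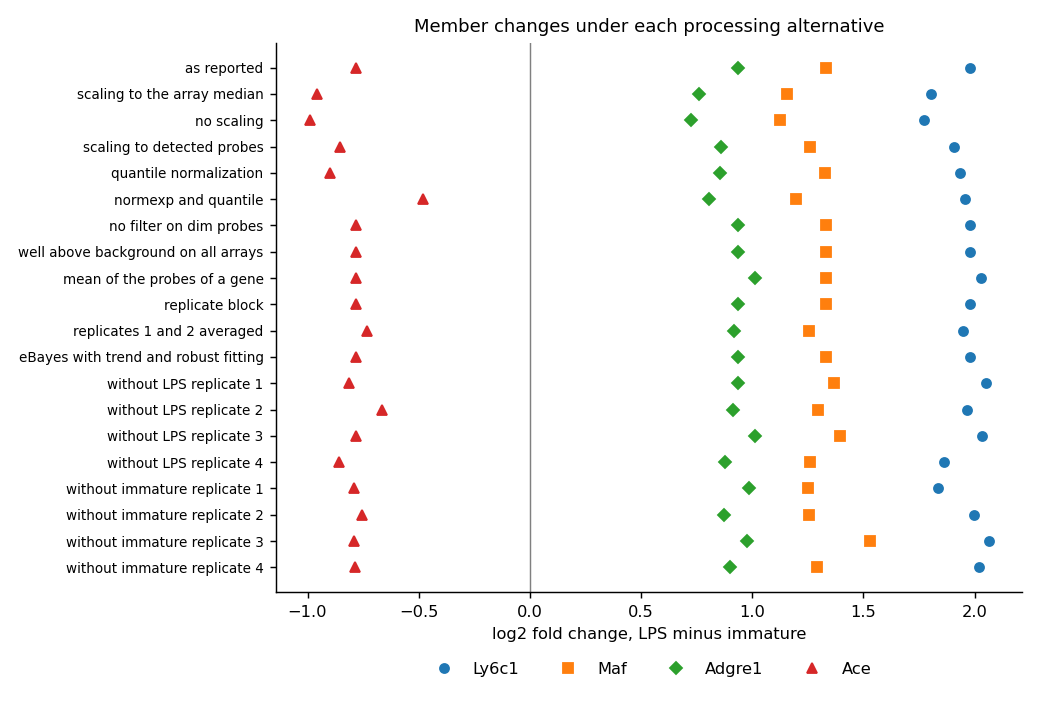
Log2 fold change (LPS minus immature) of the 4 tested members as reported and under each of 19 alternatives, which change the scaling, background correction, filter, probe choice, fit or the arrays used. Each symbol is 1 gene; Ly6c1, Maf and Adgre1 stay to the right of 0 and Ace, between −0.99 and −0.48, to the left.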

How the data were processed

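Total RNA of 4 LPS-treated and 4 immature samples was hybridised, labelled with Cy3, to 8 one-colour Agilent arrays. Signals were extracted in Agilent Feature Extraction 11.0.1.1, per the file headers and the submitters' processing notes. The deposited values used are processed signals, an intensity with background subtracted and spatial trends removed by that software without scaling across arrays; raw median intensities of spot and local background and flags of 0 or 1 stand beside them in the deposited files. Background-subtracted intensities go below 0 and processed signals do not, so dim values sit at a floor. No spot was saturated.

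Spots with an outlier flag were left out, log2 signals of a probe's spots averaged, and each array's 75th percentile over spots outside the controls subtracted. Of 55681 probes 27509 matched 1 RefSeq symbol by accession (GRCm38.p6 gene table; the array design uses another build, so only the promoter windows carry positions, on GRCm38.p6). The files hold no gene name column, and each of 20887 genes was represented by its brightest probe. A gene entered the test if 1 group had it above background on all its 4 arrays. Groups were compared with limma's lmFit and eBayes (limma 3.58.1, R 4.3.3), two-sided, with Benjamini-Hochberg adjustment over all 12706 genes; a second fit took all 25941 probes that passed. Where a group was below background throughout, a fold is given as a bound, its arrays counted at their dimmest detected level or their own, whichever was higher. Differences within arrays used exact two-sided permutation tests, whose smallest p with 4 against 4 is 0.0286; these 6 were added after the data were seen. Scripts were tested on simulated data. Figures used matplotlib 3.10.9.

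The members and gene lists were chosen with earlier results of these data known. Named are all members; from each list of related genes the 2 called genes that changed most in the more frequent direction and the 1 that changed most in the opposite one; from each marker list the called gene with the largest change; the 2 genes most correlated with each member; and Csf1r, Mertk, Fcgr1, Ccr2, Cx3cr1, Itgam, Itgax, Cd14 and Mrc1. Some genes named by the same rule are counted in their lists and are not reported here. Alternatives covered scaling, background correction, the filter on dim probes, the choice of probe, a replicate block, averaging of replicates 1 and 2 (the closest pair in both groups) as 1 sample, the variance model and leaving out each array. Precision is limited by having 8 arrays (median SE of a log2 fold change 0.12).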

Additional observations from a re-analysis of the deposited data

Results flagged for a closer look

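In the following genes 1 array of a group of 4 lay far from the other 3, with a gap to the nearest that passed Dixon's critical value. Of 90 groups examined 6 had such a gap, and chance gives about 1 in 20. Immature replicate 3 was the highest of its group for Maf (0.69, nearest −0.03) and Mertk (1.60, nearest 0.97). Immature replicate 1 was the lowest for the dimmer Ly6c1 probe (3.72, nearest 4.39), and immature replicate 4 the lowest for Siglec1 (−3.45, nearest −2.96). LPS replicate 4 was the lowest for Ly6g5b (−3.26, nearest −2.91) and the highest for Hpx (−2.79, nearest −3.69). Without immature replicate 3 the change of Maf was 1.53 log2, against 1.33 with it, and without immature replicate 1 the change of the dimmer Ly6c1 probe was 1.90, against 2.08 with it.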

How the results depend on the processing

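The 4 tested members kept their direction and their call under all 19 alternatives for each gene, with log2 fold changes of 1.77 to 2.06 for Ly6c1, 1.12 to 1.53 for Maf, 0.73 to 1.01 for Adgre1 and −0.99 to −0.48 for Ace, the last being the normexp value. The number of genes called was 7124, against 10759 with no filter on dim probes; 3988 rose, against 2615 with scaling to the array median, 2428 with no scaling and 7628 with no filter. For probes the calls were 12906, against 25355 with no filter, and for the gene lists around the members 46 rose, against 73 with no filter. The filterless counts come from testing probes below background as well, Cd163 among them (adjusted p = 0.0238). Scaling to the array median and no scaling put the median change over all tested genes at −0.12 and −0.15 log2, and the share of called genes that rose to 38.5% and 35.3%, against 56.0%. Leaving out 1 array gave 6181 to 7899 called genes (3440 to 4277 higher, 2740 to 3622 lower), 11109 to 14221 called probes, and 41 to 50 higher and 65 to 69 lower genes in the lists. Fcgr1, not called, changed sign when replicates 1 and 2 were averaged (0.022) and ran between −0.21 and 0.012 when 1 array was left out, the upper end without immature replicate 1; the cause was not tested. The deviations of same-numbered replicates correlated weakly (0.19, 0.02, 0.05 and −0.10), and those of differently numbered ones ran from −0.16 to 0.27. These few values cannot tell whether the numbers pair the samples. With the replicate block 6606 genes and 12087 probes were called. Counting replicates 1 and 2 of each group as 1 sample gave 5425 genes and 9575 probes.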
